A study of Homo sapiens with 2 samples.

Results

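A set of 9 genes of megakaryocytes and their product, the platelet, was examined for LDB1 occupancy: ITGA2B, ITGB3, GP1BA, GP9, PF4, PPBP, VWF, TUBB1 and SELP. They are 9 of 20033 protein-coding genes annotated by GENCODE release 44 on chromosomes 1 to 22, X and Y. Each gene body was extended by 10 kb on both sides, and a deposited LDB1 peak was assigned to the gene when it overlapped this window. In all, 11 of the 11046 peaks met this rule. The peaks came from CUT&Tag, in which an antibody brings a transposase to chromatin so that DNA next to the bound protein is cut and tagged. The cells were NB4, an established line of human acute promyelocytic leukemia. The LDB1 antibody library was labelled as made from NB4 cells with LDB1 overexpression, and the IgG library as made from untreated NB4 cells. The study's methods for this assay mention NB4 cells without overexpression, so it is uncertain whether the peaks were found at the usual or at a raised level of LDB1. The series held 2 libraries, 1 per group, so antibody and treatment cannot be told apart, and no group could be tested against another. Every count below comes from the LDB1 library, with no replicate to give its error. For each peak the start, end and length in bp were used, its height is not analysed here, and read depth is unknown. A gene without a peak is a gene where no region passed the authors' threshold, which does not show that LDB1 is absent there. RNA was not measured in this series, so the levels of these genes in NB4 are not known from it, and the identity of the cells was not checked against marker genes.

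Megakaryocytes are the large marrow cells that shed platelets. Their genes are known to be controlled by GATA1 with FOG1, by TAL1 joined through LMO2 and LDB1, by the ETS factor FLI1, by RUNX1 and by NF-E2. LDB1 does not bind DNA itself, and in blood cells it is known to hold together LMO2, an E-box factor and a GATA factor, so GATA and E-box sequences are the usual marks of its sites. Among the genes examined, ITGA2B and ITGB3 encode the subunits of the fibrinogen receptor of platelets. GP1BA and GP9 encode subunits of the receptor for von Willebrand factor, which VWF encodes. PF4 and PPBP encode chemokines stored in alpha granules, SELP encodes P-selectin of the granule membrane, and TUBB1 encodes the beta-tubulin of the platelet's marginal band.

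The sequences below show the parts of the peaks that the results turn on. The first set was read from hg38 on the plus strand. It covers the central 200 bp of the longest peak with a GATA word in that centre, at each gene that has such a peak. The GATA word is in capitals. The peaks of ITGA2B held GATA words too, but none in the central 200 bp. A GATA word is GATA with A or T before it and A or G after it, on either strand. They lie at chr17:47266171-47266370, chr3:129056520-129056719 and chr20:59011336-59011535.
ITGB3 intron 1: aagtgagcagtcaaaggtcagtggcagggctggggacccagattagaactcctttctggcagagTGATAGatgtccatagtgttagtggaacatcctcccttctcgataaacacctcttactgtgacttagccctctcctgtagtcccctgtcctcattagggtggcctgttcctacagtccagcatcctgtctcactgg
GP9 upstream: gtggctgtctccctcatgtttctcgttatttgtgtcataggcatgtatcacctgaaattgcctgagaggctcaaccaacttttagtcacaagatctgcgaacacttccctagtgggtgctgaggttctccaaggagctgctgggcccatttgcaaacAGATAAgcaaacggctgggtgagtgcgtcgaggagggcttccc
TUBB1 upstream: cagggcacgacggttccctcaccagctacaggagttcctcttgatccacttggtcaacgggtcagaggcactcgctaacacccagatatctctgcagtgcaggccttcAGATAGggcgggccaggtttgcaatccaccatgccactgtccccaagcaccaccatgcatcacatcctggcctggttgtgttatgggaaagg

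The next pair was chosen after the values were seen. The first, at chr20:59021087-59021286, is centred on the only composite found in a peak of these genes. A composite is a CTG, part of an E-box, followed after 7 or 8 bases by a GATA word, and is the arrangement known for the complex of TAL1 and GATA1. Capitals mark its CTG, its GATA word and a further GATA word. The second, at chr17:47288611-47288810, is centred on the only NF-E2 word, which is in capitals. NF-E2 is a dimer of a blood-specific protein and a small MAF that is known to drive platelet formation. Both are on the plus strand of hg38.
TUBB1 intron 1: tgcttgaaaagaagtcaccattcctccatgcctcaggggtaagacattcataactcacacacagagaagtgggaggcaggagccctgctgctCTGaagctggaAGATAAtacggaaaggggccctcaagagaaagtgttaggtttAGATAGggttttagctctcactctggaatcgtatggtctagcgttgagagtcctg
ITGB3 intron 6: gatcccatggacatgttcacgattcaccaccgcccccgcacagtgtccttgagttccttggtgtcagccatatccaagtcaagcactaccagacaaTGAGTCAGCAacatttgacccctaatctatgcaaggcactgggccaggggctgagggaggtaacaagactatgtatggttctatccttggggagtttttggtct

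Promoter sequences from 250 bases before the start site were taken from RefSeq (GRCh38.p14), on the strand of the gene. Of the 9 genes 5 were matched, while GP1BA, ITGB3, PF4 and VWF had no entry. The promoter of ITGA2B, at chr17:44389600-44389899, lay inside a peak over all of its 300 bases. The promoter of PPBP, at chr4:73988141-73988440, held GATA and ETS words as well but had no peak. Capitals mark the GATA and ETS words in both.
ITGA2B promoter: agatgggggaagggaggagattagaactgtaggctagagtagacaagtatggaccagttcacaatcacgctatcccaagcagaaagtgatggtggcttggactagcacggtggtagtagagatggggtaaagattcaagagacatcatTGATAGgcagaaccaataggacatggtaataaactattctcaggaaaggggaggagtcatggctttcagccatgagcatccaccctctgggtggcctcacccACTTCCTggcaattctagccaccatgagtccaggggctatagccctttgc
PPBP promoter: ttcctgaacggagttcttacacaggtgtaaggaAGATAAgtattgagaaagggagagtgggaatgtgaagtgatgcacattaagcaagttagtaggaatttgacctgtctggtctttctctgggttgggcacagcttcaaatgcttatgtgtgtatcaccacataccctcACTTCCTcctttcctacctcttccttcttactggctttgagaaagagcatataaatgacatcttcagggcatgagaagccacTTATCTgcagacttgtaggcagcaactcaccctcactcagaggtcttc

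To see which platelet genes carried LDB1, the windows were searched for peaks. Peaks were found at both integrin genes, at GP9 and at TUBB1. GP1BA, PF4, PPBP, VWF and SELP had none. Thus 4 of 9 genes had a peak, whereas 25.1% of all protein-coding genes did. The same 4 of 9 had 2 or more peaks, compared with 10.8% of all protein-coding genes. Among the 5031 protein-coding genes with any peak, 2172 had 2 or more. ITGB3 had 5 peaks, a number that 1.94% of protein-coding genes reached or passed. The windows of PF4 and PPBP overlap by 15589 bp, so these neighbours are not independent. Joined, the windows of the 9 genes span 474 kb and hold 0.232 peaks per 10 kb, compared with 0.0503 in the joined windows of all protein-coding genes. ITGB3 supplied 5 of the 11 peaks behind the first value. The windows are also unlike, as the median gene length was 7.23 kb for the 9 genes and 27.5 kb for all protein-coding genes. Long genes have more room for a peak. Among genes of 9744 bp or less, a class with GP9, TUBB1, GP1BA, PF4 and PPBP, 17.1% had a peak, compared with 2 of these 5. Among genes of 71717 bp or more, the class of VWF, 33.5% had one. The share was 23.6% among genes of 9749 to 27466 bp, the class of ITGA2B. It was 26.1% among genes of 27471 to 71685 bp, the class of ITGB3 and SELP. The central 31 bases of the peak occurred once in hg38 for 8 of the 11 peaks, compared with 89.3% of all peaks. With such peaks alone the same 4 genes had a peak, compared with 23.5% of all protein-coding genes. ITGA2B and GP9 then had 1 peak each, TUBB1 had 2 and ITGB3 had 4. Of the peaks of TUBB1, 1 lay nearer to the TSS of another gene, CTSZ.

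**Figure D1:**
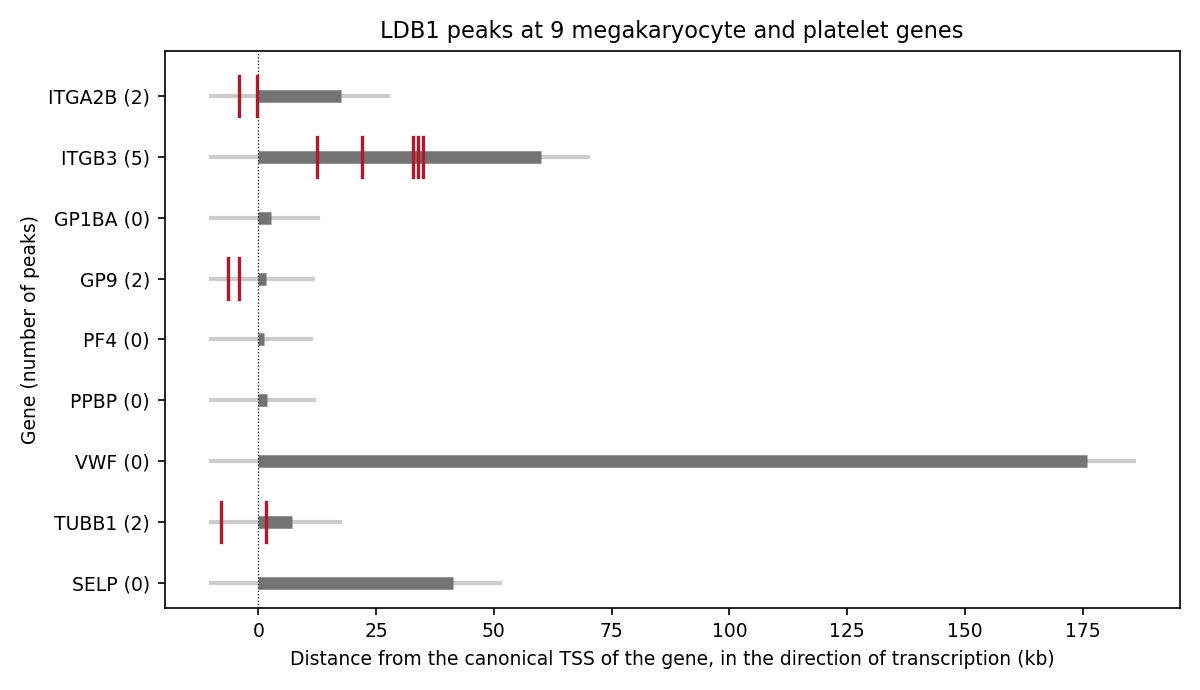
Position of the LDB1 peaks (red ticks, drawn at the peak midpoint) along the 9 genes, in kb from the canonical TSS in the direction of transcription. Dark bars are gene bodies and light lines the 10 kb on each side. Numbers in brackets give the peaks per gene, from 0 to 5, and the ticks of ITGA2B and GP9 lie at or upstream of the TSS while those of ITGB3 lie inside the gene.

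The fibrinogen receptor genes had their peaks in different places. ITGA2B (ENSG00000005961.19, chr17:44372180-44389649, minus strand, 30 exons), which encodes integrin alpha-IIb or CD41, had a peak on its promoter and another upstream. The promoter peak, chr17:44389454-44390276, was 823 bp long, covered the TSS and 196 exon bases, and had its midpoint 216 bp upstream of the TSS. The upstream peak, chr17:44393320-44394302, was 983 bp long with its midpoint 4162 bp from the TSS and overlapped no annotated gene. A gap of 3043 bp separated them, and together they covered 4.82% of the window. The central 31 bases of the promoter peak occur once in hg38 and those of the upstream peak 5 times, so reads of the latter may come from other copies.

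The ITGA2B promoter peak held words for 5 kinds of factor. It had GATA words at chr17:44389556-44389561 and chr17:44389746-44389751. Counted from the TSS, the second word runs from base -102 to base -97 and reads TGATAG on the strand of the gene. The ETS word AGGAAGT was found 3 times, and 1 of these lies on the opposite strand over bases 1 to 7 of the transcript. The peak also held 3 E-box words (CAGNTG), a RUNX word (TGTGGT) and an AP-1 word (TGACTCA). The E-box and the RUNX words nearest to the midpoint were 32 and 48 bp away from it. The GATA words were 116 and 306 bp away and the ETS words 152, 219 and 319 bp, all outside the central 200 bp. The upstream peak held 2 GATA words, 2 E-box words and a RUNX word, and none of the GATA words lay in its central 200 bp.

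ITGB3 (ENSG00000259207.10, chr17:47253827-47313743, plus strand, 15 exons), which encodes integrin beta-3 or CD61, had its 5 peaks in introns and none at the TSS. A further protein-coding gene of the annotation, ENSG00000259753, overlaps ITGB3 at all of them. The first peak, chr17:47266064-47266478, was 415 bp long and lay in intron 1, with its midpoint 12444 bp into the gene. The next, chr17:47275564-47275932, was 369 bp long and lay in intron 2 at 21921 bp. The remaining peaks formed a cluster in introns 5 and 6, at 32814, 33871 and 35046 bp, with gaps of 790 and 641 bp. They were 237, 297 and 772 bp long. The longest of them, chr17:47288488-47289259, was 2180 bp from the TSS of a shorter ITGB3 transcript.

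Motif words differed along ITGB3. The peaks in introns 1 and 2 each held a GATA word, 34 and 60 bp from the midpoint, and they held 1 and 2 E-box words. Those of the cluster in introns 5 and 6 held no GATA word. The shortest had 3 E-box words, all CAGATG, and 1 of these was 4 bp from the midpoint. The middle peak had 2 RUNX words and no E-box word, and its centre has 2 copies in hg38. The 772 bp peak held 2 ETS words, a RUNX word, an E-box word, a KLF word (CCACACCC) 2 bp from the midpoint and the NF-E2 word shown above, on the minus strand at chr17:47288707-47288716.

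Of the receptor for von Willebrand factor, GP9 had peaks within its 10 kb window and GP1BA had none. GP9 (ENSG00000169704.5, chr3:129060779-129062406, plus strand, 3 exons) is only 1628 bp long and had no peak in its body. Upstream it had the longest peaks of the set, at chr3:129053603-129055167 (1565 bp) and chr3:129055817-129057424 (1608 bp). Their midpoints lay 6394 and 4159 bp upstream of the TSS, and 649 bp separated them. Among all peaks they ranked 347 and 315 by length, so that 3.14% and 2.85% of the peaks were at least as long. The TSS nearest to both was that of GP9, and neither overlapped an annotated gene. Together they covered 14.7% of the window, the highest value among the 9 genes. Each peak held 5 GATA words and 5 E-box words, so they supplied 10 of the 19 GATA words in the peaks of these genes. In the peak nearer to the gene an AGATAA lay 60 bp from the midpoint. The other peak had no GATA word in its central 200 bp, and its centre of 31 bases has 64 copies in hg38. With the gene body alone or with 3 kb on each side, GP9 had no peak.

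GP1BA (ENSG00000185245.9, chr17:4932277-4935023), which encodes the subunit that touches von Willebrand factor, had no peak within 10 kb. The nearest was 93.4 kb upstream, in MINK1. VWF itself (ENSG00000110799.14, chr12:5948877-6124770, minus strand, 52 exons) had none along 175894 bp, and its nearest peak was 129 kb upstream. Its unprocessed copy on chromosome 22, VWFP1, had 0 peaks too.

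TUBB1 (ENSG00000101162.4, chr20:59019429-59026654, plus strand, 4 exons) had a peak upstream and a peak inside the gene. The upstream peak, chr20:59011151-59011722, was 572 bp long with its midpoint 7993 bp before the TSS. It was nearer to CTSZ, a cathepsin gene, with 3198 bp to a TSS of that gene, and its assignment to TUBB1 follows from the window alone. An AGATAG lay 10 bp from its midpoint, the closest of all GATA words of the set. The peak inside the gene, chr20:59020867-59021323, was 457 bp long and lay in intron 1, with its midpoint 1666 bp past the TSS. It held the composite CTGAAGCTGGAAGATAA at chr20:59021179-59021195, where 8 bases separate the CTG from the GATA word. The composite lay 92 bp from the midpoint and so crossed the edge of the central window. A further GATA word and an AP-1 word were found in the same peak, at 140 and 197 bp.

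The granule genes PF4, PPBP and SELP had no peak. PF4 (ENSG00000163737.5, chr4:73980811-73982027) and PPBP (ENSG00000163736.4, chr4:73986439-73988190) lie side by side, and their nearest peak was the same one, 147 and 153 kb downstream. SELP (ENSG00000174175.17, chr1:169588849-169630193) had its nearest peak 276 kb downstream, in NME7. For comparison, the nearest peak was at least as far away for 42.9% of protein-coding genes in the case of GP1BA, 36.4% for VWF, 33.6% for PF4, 32.9% for PPBP and 21.3% for SELP.

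GP1BA and SELP lay in long stretches without any peak. The stretch around GP1BA was 2.15 Mb long and holds 40 protein-coding genes. The stretch around SELP was 3.11 Mb long and holds 25. Of the 11023 gaps between neighbouring peaks, 2.85% were as long as the first and 1.6% as long as the second. In all, 17.4% of protein-coding genes lay in the 343 gaps of 2 Mb or more, while the median gap was 30.5 kb. PF4 and PPBP lay in a gap of 373 kb and VWF in one of 529 kb. Copy number and the sequencing depth of these stretches were not analysed here, and their part in the missing peaks was not tested. GATA words were present in the windows of all genes without a peak, which differ in length. VWF held 352 and SELP 153, compared with 147 in ITGB3, and GP1BA held 23, compared with 28 in GP9. GC content was lowest at PPBP (37.9%), PF4 (38.1%) and SELP (39.9%), which had no peak, and ranged from 45.3 to 52.4% at the genes with peaks. GP1BA (52.5%) and VWF (46.5%), also without a peak, were within or close to that range.

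To compare the size of the peaks, lengths were set beside those of the whole list. The 11 peaks ranged from 237 to 1608 bp with a median of 572 bp, compared with a median of 451 bp for all peaks. In the whole list the quartiles were 314 and 666 bp. Of the 11 peaks 5 were longer than the upper quartile, namely those of ITGA2B and GP9 and the 772 bp peak of ITGB3, and 2 were shorter than the lower quartile, both in the ITGB3 cluster. The lengths of ITGB3 and TUBB1 overlapped, whereas those of GP9 lay above every other peak of the set.

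**Figure D2:**
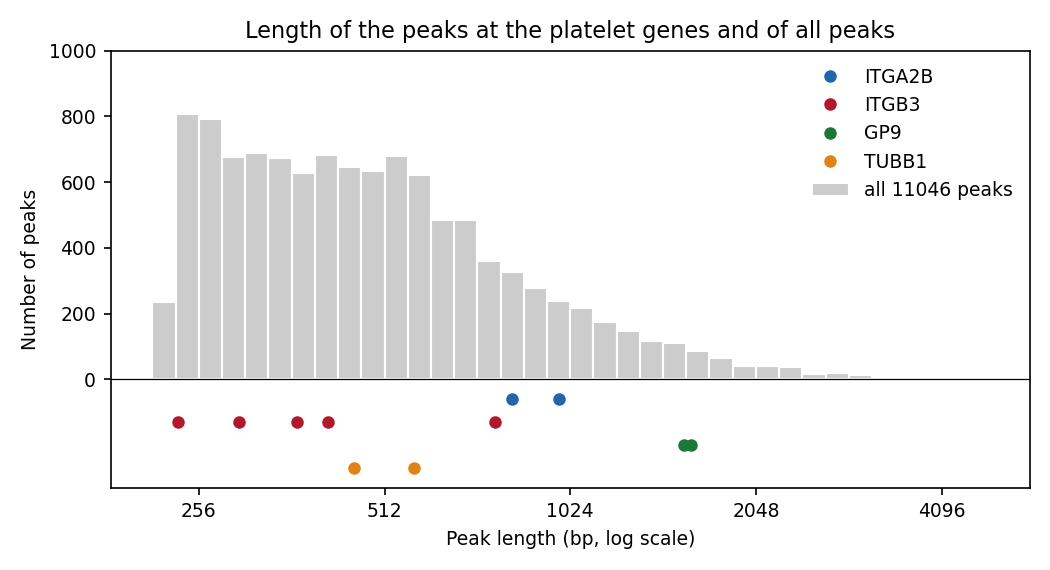
Lengths of the 11046 LDB1 peaks (grey bars, number of peaks per class, log scale of length in bp) and of the 11 peaks at the platelet genes (points below the axis, coloured by gene; their height has no meaning). The points of GP9, at 1565 and 1608 bp, lie in the right tail, and 4 of 5 points of ITGB3 lie below the median of 451 bp.

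The position relative to start sites was then compared. With a window of 3 kb around the TSS of any annotated transcript, 3 of the 11 peaks lay near a TSS, compared with 35.6% of all peaks. These were the ITGA2B promoter peak, the TUBB1 intron peak and the 772 bp peak of ITGB3. Only the ITGA2B peak lay within 1 kb. By midpoint, 5 of the 11 peaks lay upstream of the canonical TSS of their gene, the promoter peak of ITGA2B among them, and 6 lay in introns.

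Motifs were counted on both strands in the central 200 bp of each peak, as the summits are not analysed here, and then in whole peaks. A GATA word was found in 4 of the 11 centres (36.4%, Wilson 95% interval 15.2 to 64.6%), compared with 47.1% of all peaks and 27.6% of flanks 1000 bp away. These intervals cover counting error within 1 library. They treat the peaks as independent, although peaks of 1 gene are not and ITGB3 supplied 5 of the 11. In whole peaks GATA words were present in 8 of 11, and in 71.4% of all peaks. The peaks without any were those of the ITGB3 cluster. Per kb of peak there were 2.35 GATA words at the platelet genes, 2.64 in all peaks and 1.76 in the flanks.

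The composite was found in 0 of 11 centres, which allows a share of up to 27.3% (3 counts of 11, the limit used here for a count of 0), and in 11.1% of all peaks. In whole peaks it was found in 1 of 11, the TUBB1 intron, and in 22.4% of all peaks. The windows of the 9 genes hold 22 composites in their DNA, of which 8 are in VWF and 6 in SELP, genes without a peak, and 1 lay in a peak. Of all 224764 composites on the chromosomes searched, 1.21% lay in a peak. Peaks cover only 0.215% of the genome and 1.71% of the windows of the 9 genes, so a majority outside peaks follows from this small area. Beside this coverage stand the 1.21% of all composites and the 4.55% of those in the windows that lay in a peak. The latter share rests on 1 composite.

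The E-box word CAGNTG was found in 4 of 11 centres and in 51.5% of all peaks. RUNX words (TGTGGT or TGCGGT) were found in 3 centres, compared with 20.5% of all peaks, and ETS words (AGGAAGT or CGGAAGT) in 1, compared with 6.19%. AP-1 words (TGACTCA or TGAGTCA) were found in 0 centres, which again allows up to 27.3%, compared with 9.48% of all peaks. In whole peaks AP-1 words were found in 5 of 11, compared with 19.2% of all peaks, and all of them lay 131 bp or more from the midpoint. The NF-E2 motif, an AP-1 word preceded by TGC, was found in 1 whole peak and in 1.99% of all whole peaks. With 11 peaks, each of these shares has a wide interval, and no difference from the whole list was tested.

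**Figure D3:**
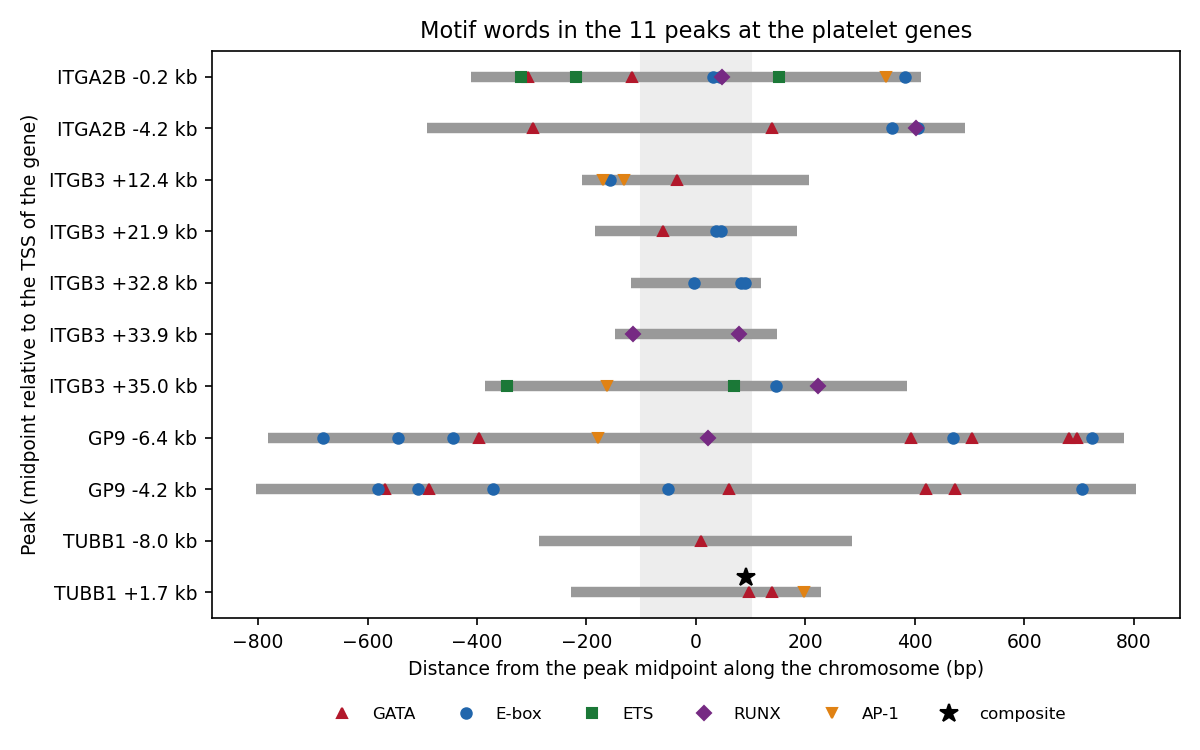
Motif words in the 11 peaks. Grey bars are the peaks, aligned at their midpoints along the chromosome (bp), with the shaded central 200 bp, and symbols mark GATA, E-box, ETS, RUNX and AP-1 words and the composite; KLF and NF-E2 words are not drawn. The ETS words lie in the ITGA2B promoter peak and the ITGB3 peak at 35046 bp, and the star of the composite stands in the TUBB1 intron peak.

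The RefSeq promoters were searched with the same words. GATA words were found in the promoters of ITGA2B, PPBP and SELP, or 3 of 5, compared with 8769 of all 35116 promoters of the table. E-box words were found in GP9, PPBP and TUBB1, also 3 of 5, compared with 49.9%. ETS words were found in 4 of 5, all but TUBB1, compared with 14.4%. RUNX words were found in 4 of 5, all but ITGA2B, compared with 19.6%, and the composite in 0 of 5, compared with 1.34%. Of these promoters only that of ITGA2B had any base in a peak. PPBP carried GATA words in bases -217 to -212 and 3 to 8 with an ETS word in bases -80 to -74, and SELP a GATA word in bases -108 to -103 with an ETS word in bases -53 to -47. A match of letters is a description and not a site of binding.

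To place these genes among others of the lineage, a list of 40 further platelet genes was searched in the same way. Of these 19 had a peak (47.5%, compared with 25.1% of all protein-coding genes) and 21 had none. Of the von Willebrand receptor, GP1BB had 2 peaks and GP5 had none, so that peaks were found at GP1BB and GP9 and not at GP1BA and GP5. The gene with the greatest length in peaks was MYH9, non-muscle myosin heavy chain IIA, with 10 peaks and 7773 bp. Its longest peak (2357 bp) lay in intron 1. TBXAS1, thromboxane synthase, followed with 7 peaks and 3975 bp, and 6 of its peaks had a GATA word in the centre. Such a word was found in 2 of 3 peaks at each of LCP2, F2RL3 and PECAM1. It was found in 1 of 3 at TLN1, 2 of 10 at MYH9 and 0 at GP1BB, TUBA4A, PTGIR and TGFB1. GP1BB had a peak of 2240 bp with its midpoint at -455 bp from the TSS. The longest peaks of F2RL3, PTGIR and TUBA4A had their midpoints at -1177, -4472 and -25902 bp from the canonical TSS. That of TGFB1 lay at 30399 bp, downstream of the canonical transcript. Those of TBXAS1, LCP2, PECAM1 and TLN1 lay in introns. LCP2, an adaptor of collagen receptor signalling, had 3 peaks and TUBA4A, an alpha-tubulin, had 2. PTGIR, the prostacyclin receptor, F2RL3, a thrombin receptor, PECAM1 and TLN1 had 3 each, and TGFB1 had 2. F2RL3 had a composite in the centre of 1 peak. Among the genes without a peak were THBS1, SPARC and MMRN1, whose products are stored in alpha granules, and P2RY12 and CLEC1B, receptors of the platelet surface. These names were chosen after their values were seen. Several genes of this list, such as MYH9, TLN1 and TGFB1, are active in many cell types.

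Red cells share their progenitor with megakaryocytes, so genes of the red cell were set beside them. All 8 heme synthesis genes and all 12 genes of the red cell membrane skeleton had a peak, with medians of 3 and 4.5 peaks per gene. In contrast the platelet genes had 4 of 9 (44.4%) with a median of 0. Of 12 neutrophil granule genes, products of the lineage NB4 belongs to, 5 had a peak (41.7%) and 0 had more than 1. The neighbours PRTN3 and AZU1 share 1 peak of 397 bp in this count. All 4 platelet genes with a peak had at least 2, but ITGA2B and GP9 had 1 each among peaks with a single-copy centre. Of the peaks of TUBB1, the upstream one was nearer to a TSS of CTSZ. The skeleton genes are long, with a median of 81.1 kb against 7.23 kb for the platelet genes. The heme genes, with 14.6 kb, and the neutrophil genes, with 7.05 kb, are closer in length. These lists were chosen with earlier results of these data known, and they were compared by counts, without a test.

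**Figure D4:**
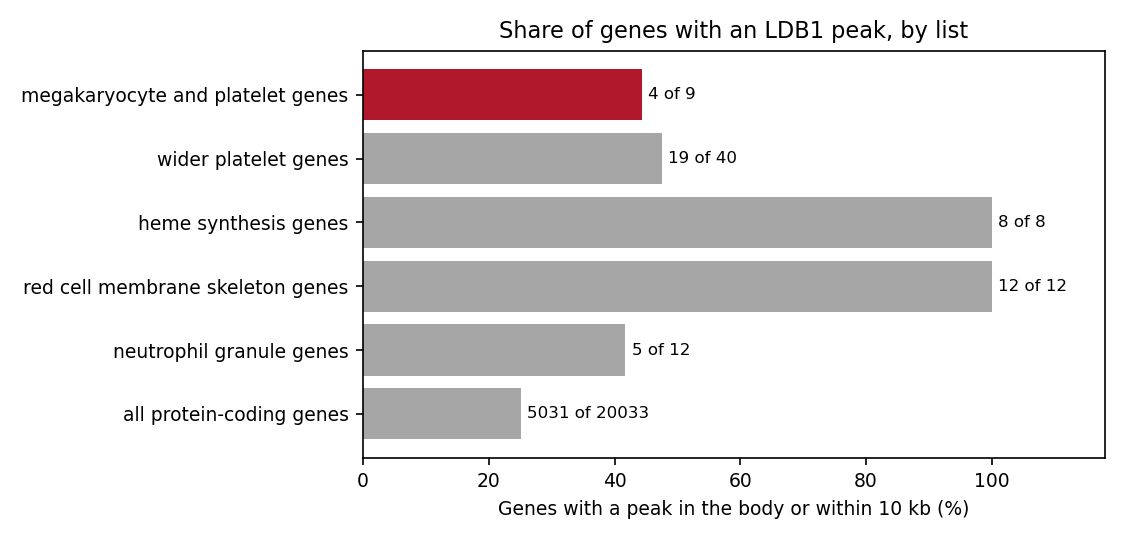
Share of genes (%) with at least 1 LDB1 peak in the gene body or within 10 kb, for the 9 platelet genes (red), 4 comparison lists and all protein-coding genes (grey). The numbers beside the bars give genes with a peak of genes searched, from 4 of 9 for the platelet genes to 12 of 12 for the red cell membrane skeleton.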

How the data were processed

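The authors made 1 CUT&Tag library from NB4 with the LDB1 antibody and 1 with IgG. Reads were aligned by them to hg38 with Bowtie2 2.4.4. Peaks were called on fragments of read pairs by MACS3 3.0 at a q limit of 0.01, for LDB1 from a single library. Use of IgG as control and removal of duplicates are not given in the sources used here. The deposited values were start, end and length of 11046 peaks in bp, counted from 1. Scores, q-values and summits are not analysed here, so midpoints were used, and depth is unknown.

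Genes came from GENCODE release 44. Intervals of shares are Wilson intervals at 95%, and a count of 0 is given with a limit of 3 counts. Words were searched as spelled in the text, and a word reading the same on both strands was counted once. Copies of the central 31 bases were counted on chromosomes 1 to 22, X and Y. Genes and gene lists were chosen with earlier results of these data known. All 9 genes and their peaks are named, with the 10 further platelet genes of greatest peak length. Overlap counting and motif search were tested on simulated data. Alternatives were other gene windows, midpoints, the longest peaks, peaks with a single-copy centre, other motif windows and other TSS sets. Python 3.11.15, numpy 2.4.6, pandas 2.3.3, pysam 0.24.0, SciPy 1.17.1 and matplotlib 3.10.9 were used.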

Additional observations from a re-analysis of the deposited data

How the results depend on the processing

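No paired analysis was possible because LDB1 and IgG have 1 library apiece. A stricter peak threshold could not be run, as the table used holds position and length. Over 11 results, 38 alternative values stayed within 1.5 times the count (or 1 SD of the length) and 18 did not. The genes with a peak were 3 with the gene body alone or with 3 kb, where GP9 was lost, and 4 under each other alternative. Of all protein-coding genes 16.5% had a peak with the gene body alone, 19.7% with 3 kb and 34.3% with 25 kb, where 4 of the 9 genes had one. The peaks numbered 7 with the gene body alone, 7 with 3 kb and 7 among the longest peaks, instead of 11. Of all protein-coding genes 3310 had a peak with the gene body alone and 3267 with the longest peaks, instead of 5031.

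Motif counts rest on few peaks. The GATA count of 4 became 2 in centres of 100 bp, 8 in whole peaks, 2 with the gene body alone and 2 with the longest peaks. The composite count of 0 became 1 in whole peaks. The E-box count of 4 became 8 in whole peaks and 2 with the longest peaks. The ETS count of 1 became 0 in centres of 100 bp and 2 in whole peaks. The RUNX count of 3 became 1 in centres of 100 bp, 5 in whole peaks and 1 in peaks with a single-copy centre. With a window of 1 kb, 1 peak was near a TSS instead of 3. Longer motif windows hold more words by construction, and other causes were not tested.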

Other observations

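The 40 further platelet genes had 53 peaks in their windows. AP-1 words were found in the centres of 13 of these (24.5%, 14.9 to 37.6%), at 9 genes, compared with 9.48% of all peaks and with 0 of 11 at the 9 platelet genes. Without MYH9, which alone had 10 peaks, the count was 11 of 43 (25.6%). NF-E2 words were found in the centres of 3 of the 53 peaks, at CLU, PECAM1 and TBXAS1, compared with 0.905% of all peaks. GATA words were found in 25 (47.2%), compared with 47.1% of all peaks, and the composite in 4 (7.55%), at CLU, F2RL3, GP6 and PTGS1, compared with 11.1%. Peaks of 1 gene are not independent, the comparison was chosen after the values were seen, and no difference was tested.

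With 25 kb around each gene, ITGB3 gained a peak of 414 bp, 13.4 kb upstream of the gene, and no other of the 9 genes gained one. Past TUBB1, the next peak lay 3060 kb downstream. Past ITGA2B, the next peak lay 83.2 kb downstream, between it and SLC4A1, the anion exchanger of the red cell.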
